A study of Rattus norvegicus with 24 samples.

Results

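Retinas taken after 1 month of experimental diabetes were compared with retinas of vehicle-injected rats, and the comparison was described across 2320 genes. These were the genes with a RefSeq-mapped probe and a mean level above 0 in at least 1 of the groups, out of 4013 genes with such a probe. The level was log2 of the signal over the median rat probe of the array, so that 0 is the middle of the array and a difference of 1 is 2-fold. Of the 2320 genes, 2219 were above 0 in both groups, 56 only in the control group and 45 only in the diabetic group. The lowest gene inside had a higher group mean of 0.00306, and the nearest gene outside had -0.00201.

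The animals were male Sprague Dawley rats. The diabetic group (1M STZ, 6 arrays) had received streptozotocin (STZ), a toxin that destroys the insulin-producing beta cells of the pancreas, and the control group (1M Control, 6 arrays) had received the citrate vehicle only. No rat received insulin, and diabetic rats entered the study only when their blood glucose was high, so the model stands for untreated insulin deficiency of 1 month and carries no genetic background of diabetes. Total RNA of the retina was hybridised to the arrays, and a further 12 arrays formed 3 month groups with their own controls. The labels give each array as a separate sample and each is counted here as 1 rat, but the study's animal table lists fewer 1 month control rats than there are control arrays, so whether control arrays share a rat is not known.

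The retina turns light into nerve signals in rods and cones, passes them through bipolar, amacrine and horizontal cells to ganglion cells, and is held together by Müller glia, which clear glutamate and potassium. It is among the tissues with the highest use of glucose, much of which its photoreceptors turn into lactate. In diabetes it is known for early disturbance of neurons and glia and for later damage to its vessels.

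The label of the tissue was checked against markers. The rod genes Sag (arrestin) and Prph2 (peripherin) were the most abundant of all 2320 genes, with mean levels of 6.99 and 6.72, and Glul, the glutamine synthetase of Müller glia, had a level of 6.58. Other retinal markers were well above the array median, among them the bipolar cell receptor Grm6 (3.72 in control and 3.93 in STZ retinas) and the amacrine cell gene Calb2 (4.55 and 4.51). Gfap, the filament protein of astrocytes and of activated glia, lay below 0 in both groups (-0.79 and -0.65), as did the pigment epithelium gene Rpe65 (-0.08 and -0.12). The 2 pigment epithelium markers had a summed scaled signal of 0.83 to 1.38 in control and 0.69 to 1.19 in STZ retinas. Lens markers, 6 of 8 above 0, varied far more, from 183 to 502 in control and from 46.8 to 479 in STZ retinas.

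Within a group the arrays had a median correlation of 0.959 (30 pairs), and between the groups the median was 0.959 as well (36 pairs). The arrays of Control 5, STZ 4 and STZ 5 stood apart. On Control 5, 109 of the 2320 genes were more than 2-fold from the median of their group, 100 of them below it. STZ 4 had 60 such genes, 59 of them below, STZ 5 had 59, 37 of them above, and STZ 2 had 35. The other 8 arrays had 4 to 15. Values without Control 5 and STZ 4, a pair chosen after seeing the data, are given beside the results that they moved most. That pair leaves in STZ 5, whose median correlation with its own group was 0.9639, beside 0.9672 for STZ 4.

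After 1 month no gene passed the test. With limma, 0 of 22002 tested probes (a percentage of 0) reached an adjusted p under 0.05 with at least a 1.2-fold difference, and the smallest adjusted p was 0.455 over all probes and 0.478 among the 2320 genes. Unadjusted limma p-values under 0.05 were found for 163 of the 2320 genes (7.03%) and for 6.59% of all tested probes. Of these genes 94 were higher in the STZ rats (4.05%, beside 3.4% of all probes) and 69 were lower (2.97%, beside 3.2%). The comparison named in the study's methods, at an unadjusted p under 0.01 and 1.2-fold, took 28 of the 2320 genes (1.21%) and 1.16% of all probes. The shares among the genes were therefore close to those of the whole array.

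The differences were small. The median size of the difference was 0.122 on the log2 scale, below the median standard error of 0.142, and 1956 genes (84.3%) had group means within 1.2-fold of each other. Only 30 genes lay beyond 1.5-fold and 6 beyond 2-fold. Slightly more genes were higher than lower in the STZ rats (1258 against 1062, 54.2%, beside 53.1% of all probes), with a median difference of 0.02. Whole retinas were measured, so fewer cells of a type and less RNA per cell cannot be told apart in any of these values.

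**Figure D1:**
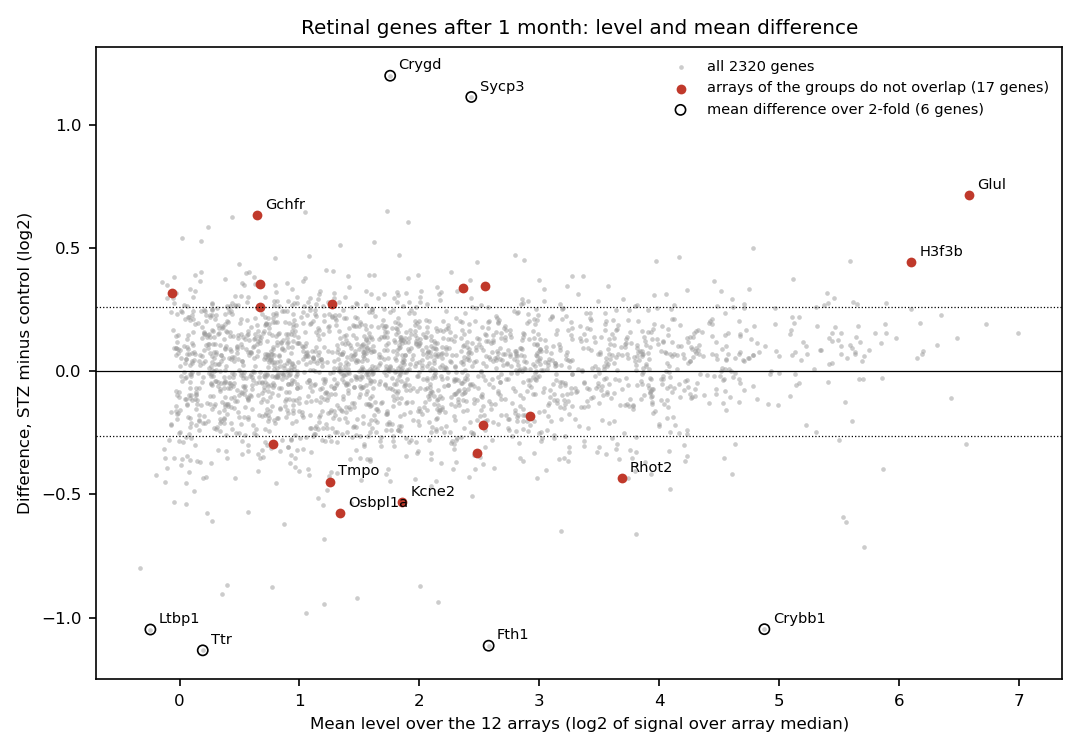
Each point is 1 of the 2320 genes, with its mean level over the 12 arrays on the x axis (log2 of signal over array median) and the difference of the group means, STZ minus control, on the y axis (log2). Dotted lines mark 1.2-fold, red points the 17 genes whose control and STZ arrays do not overlap, and open circles the 6 genes beyond 2-fold; most points lie between the dotted lines, and no open circle is red.

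The most consistent shifts were sought as genes for which all 6 STZ arrays lay above, or all below, the 6 control arrays. There were 17 of them (0.733% of the 2320 genes, beside 0.518% of all tested probes). In 9 the STZ rats were higher (0.388%, beside 0.314%) and in 8 they were lower (0.345%, beside 0.205%). After quantile normalization the counts were 10 higher and 4 lower, and percentile ranks within the array gave the same counts. None of the 17 passed the test: limma's adjusted p ranged from 0.478 for Gchfr to 0.778 for Rab7a.

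Glul showed the largest of these shifts. Glutamine synthetase turns glutamate and ammonia into glutamine inside Müller glia, and so closes the cycle by which the transmitter of photoreceptors and bipolar cells is recovered. Its level in the control rats was 5.80 at the lowest, 6.26 at the median and 6.43 at the highest, and in the STZ rats it was 6.60, 6.83 and 7.57. Every STZ rat was above every control rat, with STZ 5 and STZ 3 the highest and Control 5 the lowest. The means were 6.22 ± 0.23 and 6.94 ± 0.38 (SD, n = 6 each), a difference of 0.72 (standard error 0.17, 1.64-fold) with a limma adjusted p of 0.63. After quantile normalization, which forces the same distribution on every array, the difference was 0.39.

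Gchfr had the smallest p-value of the 2320 genes. Its product binds GTP cyclohydrolase, the first enzyme of tetrahydrobiopterin synthesis, and regulates it by feedback. The level ran from -0.04 through a median of 0.36 to 0.50 in the control rats and from 0.78 through 0.90 to 1.23 in the STZ rats, so that the groups were well apart although the gene is near the middle of the array. The difference was 0.63 (standard error 0.12, limma adjusted p 0.478), and the mean percentile rank on the array was 55.0 in control and 64.6 in STZ retinas.

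H3f3b, which encodes the replication-independent histone H3.3, was among the most abundant genes. It reached 6.09 in the highest control rat and 6.10 in the lowest STZ rat, so that the groups only just parted. Its means were 5.88 ± 0.18 and 6.32 ± 0.14 (SD, n = 6 each), and the difference of 0.44 became 0.31 after quantile normalization.

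The other genes with higher levels in every STZ rat were of several kinds. Sqle, squalene epoxidase of the cholesterol pathway, lay between 2.07 and 2.34 in the control rats and between 2.39 and 2.71 in the STZ rats (difference 0.34). Cacnb3, a beta subunit of voltage-gated calcium channels, lay between 2.22 and 2.51 and between 2.52 and 2.88 (0.35). Both pairs of ranges were narrow and nearly met. Ifi47, an interferon-induced GTPase, differed by 0.35, but STZ 1 alone had 1.45 while the other STZ rats had 0.66 to 0.80. Slc15a3, a lysosomal peptide transporter (0.32), Dlg1, a scaffold protein of synapses and junctions (0.27), and Ncf1, a subunit of the phagocyte NADPH oxidase (0.26), completed the group with small differences at low levels.

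Among the 8 genes with lower levels in every STZ rat, Osbpl1a and Kcne2 had the largest differences, and 1 or 2 arrays had a large share in both. Osbpl1a, an oxysterol-binding protein of late endosomes, had a difference of -0.58. STZ 4 had -0.10 and the other STZ rats 1.06 to 1.42, and without Control 5 and STZ 4 the difference was -0.27. Kcne2, an accessory subunit of potassium channels, ran from 1.91 through a median of 2.00 to 2.74 in the control rats, with Control 5 at the top, and from 1.32 through 1.59 to 1.89 in the STZ rats. The highest STZ rat was only just below the lowest control rat. The difference was -0.53 (standard error 0.15, limma adjusted p 0.692) and -0.42 without those arrays, and the mean percentile rank was 81.1 in control and 74.1 in STZ retinas.

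Tmpo and Rhot2 were separated more evenly. Tmpo encodes lamina-associated polypeptide 2 of the nuclear envelope, with 1.23 to 1.63 in the control rats and 0.73 to 1.17 in the STZ rats, and its difference was -0.45 (standard error 0.11, limma adjusted p 0.63). Rhot2, a mitochondrial GTPase that links mitochondria to their transport motors, had 3.62 to 4.21 and 3.34 to 3.60, a difference of -0.43. In both genes the highest STZ value and the lowest control value almost met. Syt4, a synaptotagmin of dense-core vesicles (-0.33), Lsr, a lipoprotein receptor also found at tricellular junctions (-0.29), Bzw1, a regulator of translation (-0.22), and Rab7a, the small GTPase of late endosomes (-0.18), followed. Bzw1 and Rab7a were below 1.2-fold although no array overlapped.

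**Figure D2:**
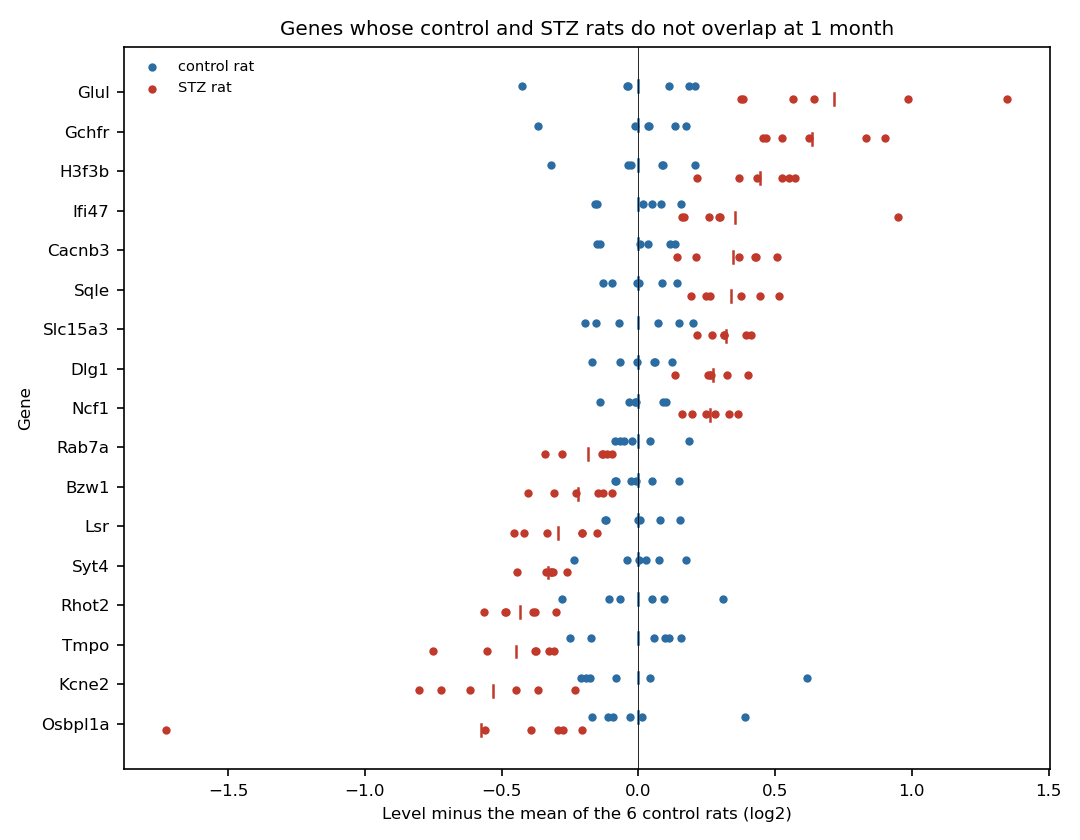
For each of the 17 genes, points give the level of each rat minus the mean of the 6 control rats (x axis, log2; control rats blue, STZ rats red), and short bars give the group means. No red point of a gene lies within the range of its blue points; the separate red points are Osbpl1a on STZ 4 and Ifi47 on STZ 1, and the blue point far to the right in Kcne2 is Control 5.

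A few genes with small p-values overlapped by 1 or 2 arrays. Flot2, a flotillin of membrane microdomains, was higher by 0.40. Golgb1, the Golgi protein giantin, had the largest negative difference of this kind, -0.87, with STZ 4 and STZ 5 at -0.48 and -0.26 and the other STZ rats at 0.46 to 0.85. Dgkb, a diacylglycerol kinase of neurons, had -0.43. None of these passed the test.

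**Figure D3:**
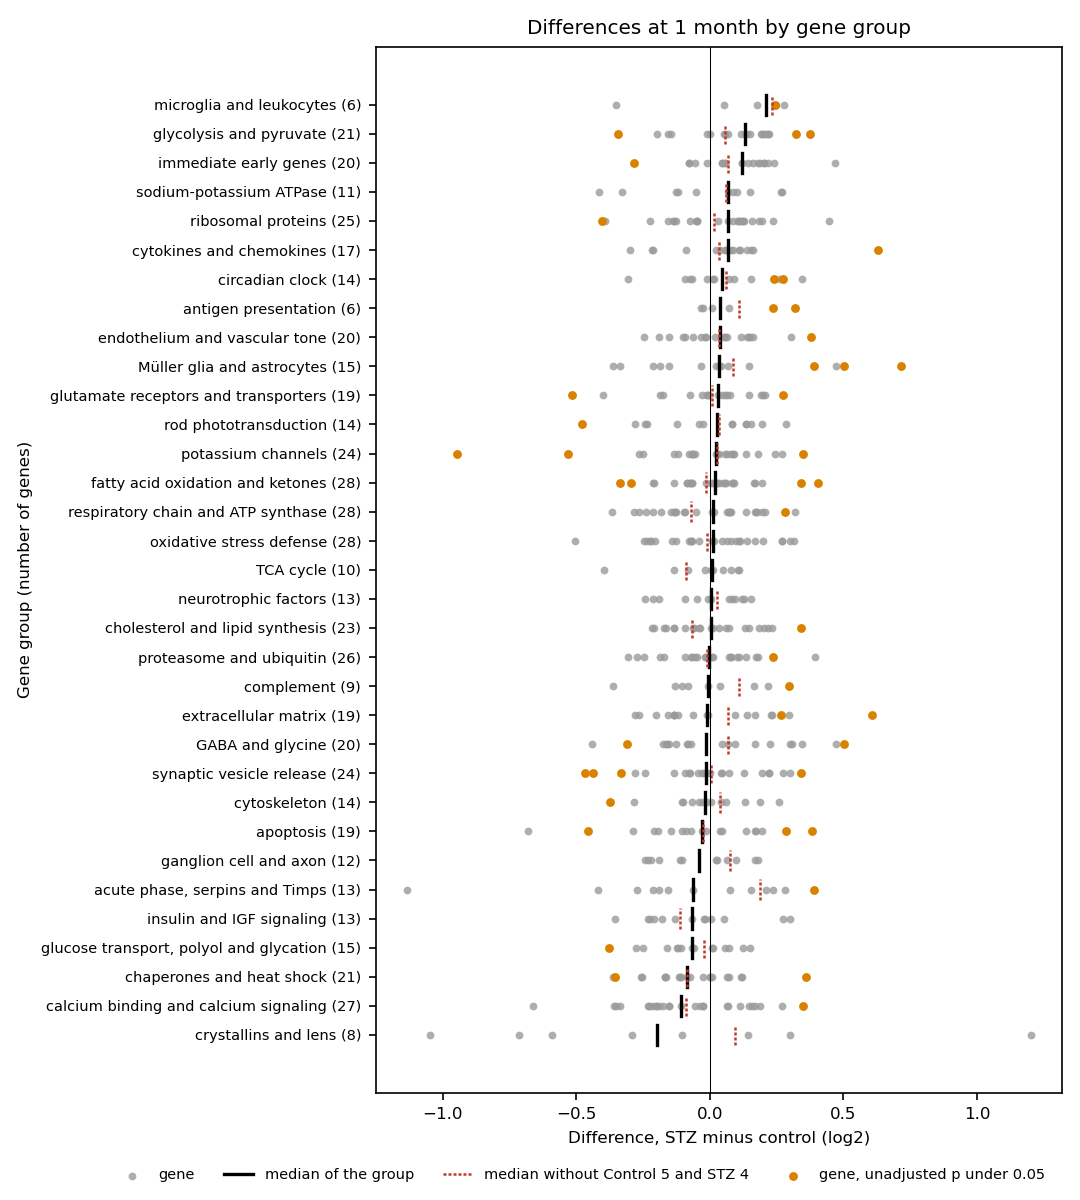
Each row is a gene group with its number of genes among the 2320, and each point is the difference of a gene, STZ minus control (x axis, log2); orange points have an unadjusted limma p under 0.05, black bars mark the median of the group and red dotted bars the median without Control 5 and STZ 4. Medians lie between -0.20 (crystallins and lens) and 0.21 (microglia and leukocytes), and several red bars lie on the other side of 0 from the black bar.

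Photoreceptor genes were evenly divided. Of 14 genes of rod phototransduction 7 were higher and 7 lower in the STZ rats, with a median of 0.03 (-0.10 after quantile normalization, which left 3 higher). The highest difference was that of Slc24a1, the rod sodium-calcium-potassium exchanger (0.29), and the lowest that of Cnga1, a subunit of the rod channel gated by cGMP (-0.48), which was the only 1 of the 14 with an unadjusted p under 0.05. Cnga1 had 3.43 to 4.92 in the control rats and 3.28 to 4.27 in the STZ rats, which overlap, and its lowest control value came from Control 5, so that the difference was -0.74 without Control 5 and STZ 4. For cones only 3 genes were measured, from Gnb3, a transducin beta subunit (-0.33), to Opn1sw, the short-wavelength opsin (0.18).

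Of 15 genes of Müller glia and astrocytes 9 were higher, and the 3 with an unadjusted p under 0.05 were all higher, with Glul and Lcn2 among them. Aqp4, the water channel of Müller glia, lay below 0 in both groups and so outside the 2320 genes, and its level was -0.51 in control and -0.91 in STZ retinas, with an unadjusted limma p of 0.0437 and an adjusted p of 0.756. Lcn2, a lipocalin of activated glia, had 1.12 to 1.71 in the control rats and 1.24 to 2.05 in the STZ rats (difference 0.39). Its groups overlapped, with STZ 2 and STZ 4 among the control values. Clu, the chaperone clusterin, was the lowest at -0.36, and -0.05 without Control 5 and STZ 4. The median over the list was 0.03 (-0.04 after quantile normalization). The summed scaled signal of the 7 Müller markers with a probe, of which Glul is the largest, was 208 to 231 in control and 236 to 344 in STZ retinas. Glul carried that separation, since the other 6 markers summed to 122 to 172 in control and to 121.2 to 169 in STZ retinas. In all other marker lists the sums of the groups overlapped.

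Genes of neuronal transmission went both ways. Of 24 genes of synaptic vesicle release 11 were higher (median -0.02, and 0.0033 without Control 5 and STZ 4), from Unc13b, a vesicle priming protein (-0.47), to Syn3, a synapsin (0.34). Syn3 was the only gene of the list that was higher with an unadjusted p under 0.05, and 3 were lower. Among 20 genes of GABA and glycine transmission 10 were higher (median -0.01, and 0.07 with 12 higher without Control 5 and STZ 4). The lowest was Slc6a13, the GABA transporter GAT-2 of the leptomeninges and some epithelia (-0.44, but 0.16 without those arrays). Glutamate receptors and transporters numbered 19, with 10 higher (median 0.03), from Grm4, a group III metabotropic receptor (-0.52, and -0.30 without those arrays), to Dlg1. Of 12 genes of ganglion cells and axons 6 were higher (median -0.04, and 0.07 without those arrays), from Sncg, gamma-synuclein of ganglion cells (-0.24, and 0.0151 without those arrays), to Uchl1 (0.18). Uchl1 ranged from 0.03 to 0.33 when 1 array was left out. No gene of this list had an unadjusted p under 0.05.

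Ion handling was likewise divided. Of 24 potassium channel genes 13 were higher (median 0.02, and -0.07 with array brightness as a covariate), from Kcnj13, an inward rectifier of epithelia (-0.94), to Kcnk3, a background channel (0.35). Kcnj13 had 1.42 to 2.07 in the control rats, while STZ 4 had -1.37 and STZ 5 0.14, and its difference was -0.44 without Control 5 and STZ 4. Of 27 calcium binding and signaling genes 9 were higher, with a median of -0.11 (-0.09 without those arrays, and -0.03 with 12 higher when array brightness was a covariate). They ran from Anxa1, an annexin (-0.66, and -0.27 without those arrays), to Cacnb3. The 11 genes of the sodium pump and related transporters had 6 higher and a median of 0.07 (-0.04 after quantile normalization), with Slc8a1, a sodium-calcium exchanger, the highest at 0.27.

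Energy metabolism gave the largest share of higher genes among the lists of over 20 genes, in glycolysis and pyruvate metabolism. There 16 of 21 genes were higher in the STZ rats, with a median of 0.13 (0.06 without Control 5 and STZ 4, and 0.08 after quantile normalization, which left 14 higher). By percentile rank 12 of the 21 were higher. Ldhb, a lactate dehydrogenase subunit, had 4.56 to 5.13 in the control rats and 5.02 to 5.69 in the STZ rats (difference 0.37, standard error 0.15, limma adjusted p 0.734). A further probe of Ldhb gave 0.17, and without Control 5 and STZ 4 its difference was 0.23. Aldoa, an aldolase, had 4.31 to 4.59 and 3.66 to 4.47 (-0.34). The groups overlapped in both genes. The mitochondrial lists were centred on 0: of 10 genes of the TCA cycle 6 were higher (median 0.01), and of 28 genes of the respiratory chain and ATP synthase 15 (median 0.01). Without Control 5 and STZ 4 these became 1 of 10 (-0.09) and 9 of 28 (-0.07). The TCA list ran from Cs, citrate synthase (-0.40, and -0.60 without those arrays), to Dld (0.11), whose direction rested on Control 5 (-0.27 without those arrays). The respiratory list ran from Atp5mc2 (-0.37, and -0.08 without STZ 6) to Atp5pd (0.32, and 0.12 without Control 5 and STZ 4).

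The medians of the lipid metabolism lists lay close to 0, with single genes going both ways. Of 28 genes of fatty acid oxidation and ketone use 16 were higher (median 0.02, and -0.01 with 13 higher without Control 5 and STZ 4). They ran from Cpt2, a carnitine palmitoyltransferase (-0.34, and -0.20 without those arrays), to Ucp3, a mitochondrial uncoupling protein (0.41, and 0.04 by a further probe). Of 23 genes of cholesterol and lipid synthesis 12 were higher (median 0.00, and -0.07 without Control 5 and STZ 4), from Fads1, a desaturase (-0.21), to Sqle. Glucose transport, the polyol pathway and glycation had 6 of 15 higher and a median of -0.07 (-0.02 without Control 5 and STZ 4). Its lowest gene was Hagh, the hydroxyacylglutathione hydrolase that ends the detoxification of methylglyoxal, with 2.56 to 2.97 in the control rats and 2.07 to 2.57 in the STZ rats. Only STZ 1 and Control 6 touched in Hagh, and its difference was -0.38 (standard error 0.11, limma adjusted p 0.704). Insulin and IGF signaling had 4 of 13 higher and a median of -0.07 (-0.11 without Control 5 and STZ 4, and -0.01 with 6 higher when array brightness was a covariate). It ran from Ptpn1, a phosphatase of the insulin receptor (-0.35, and -0.19 without STZ 5), to Eif4ebp1 (0.30, and 0.15 without STZ 2). No gene of this list had an unadjusted p under 0.05.

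Among genes of protein synthesis, folding and turnover the chaperones were mostly lower. Of 21 chaperones and heat shock proteins 6 were higher (median -0.09, with and without Control 5 and STZ 4, and -0.10 after quantile normalization), from Herpud1, a protein of endoplasmic reticulum stress (-0.36, and -0.17 without those arrays), to Hspa2 (0.36, and 0.55 without them). The 25 ribosomal protein genes had 14 higher and a median of 0.07 (-0.07 with 9 higher after quantile normalization), with Rpsa the lowest at -0.41 (-0.15 by a further probe). The 26 genes of the proteasome and ubiquitin had 12 higher and a median of -0.0042, from Psmc3 (-0.31) to Psmb4 (0.39, and 0.13 without those arrays). Of 28 genes of oxidative stress defense 15 were higher (median 0.01, and -0.0096 with 13 higher without those arrays). Sod3, the extracellular superoxide dismutase, was the lowest of these at -0.505 with STZ 4 at 0.06 and the other arrays at 2.04 to 3.35, and without Control 5 and STZ 4 its difference was -0.02.

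Of 17 cytokine and chemokine genes 13 were higher (median 0.07, and 0.04 without Control 5 and STZ 4). The highest was Jak3, a kinase of cytokine receptors, with -0.26 to 0.49 in the control rats and -0.07 to 1.38 in the STZ rats. Its difference was 0.63 (standard error 0.21, limma adjusted p 0.734), STZ 5 lay among the control values, and a further probe gave 0.53. Of 6 genes of microglia and leukocytes 5 were higher (median 0.21, and 0.11 with array brightness as a covariate). They ran from Cd53 (-0.35, and 0.03 without STZ 2) to Lgals3 (0.28, and -0.17 without STZ 2). The 5 microglia markers with a probe, 3 of them above 0, had a summed signal of 5.73 to 7.17 in control and 6.46 to 8.52 in STZ retinas. Complement had 4 of 9 higher (median -0.01, and 0.11 without those arrays), from Clu to Cr1l, a complement regulator (0.295). Of 20 genes of endothelium and vascular tone 11 were higher (median 0.04, and -0.0085 with array brightness as a covariate), from Ace (-0.25) to Nppa, atrial natriuretic peptide. Nppa had 1.61 to 1.82 in the control rats and 1.79 to 2.44 in the STZ rats, with only STZ 6 inside the control range, and its difference was 0.38 (standard error 0.11, limma adjusted p 0.704).

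Antigen presentation genes had 4 of 6 higher (median 0.04, and -0.03 with 2 higher when array brightness was a covariate), from Ctss, a lysosomal protease (-0.03), to RT1-DMa, which loads peptides onto class II molecules (0.32). Of 14 cytoskeleton genes 6 were higher (median -0.02, and 0.04 without Control 5 and STZ 4), from Dynlt1, a dynein light chain (-0.37), to Cfl1, cofilin (0.26, and 0.08 without them). Of 13 neurotrophic factors and receptors 7 were higher (median 0.0029, and -0.0067 after quantile normalization), from Ptn, pleiotrophin (-0.24), to Gfra2, a receptor of GDNF family ligands (0.15, and 0.07 without those arrays).

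The medians of the matrix and acute phase lists moved when Control 5 and STZ 4 were left out, and that of the apoptosis list did not. Of 19 extracellular matrix genes 8 were higher (median -0.01), and 13 without Control 5 and STZ 4 (median 0.07). The highest, Mgp, matrix Gla protein of vessel walls, was 0.61, or 0.31 without those arrays, and a further probe gave 0.08. Of 13 acute phase proteins, serpins and tissue inhibitors of metalloproteinases 6 were higher (median -0.06, and 0.19 without those arrays). Of 19 apoptosis genes 8 were higher (median -0.03, with and without those arrays), from Bnip3 (-0.68, and -0.27 without them), which spread from -0.83 to 3.26 over all rats, to Fadd, the adaptor of death receptors. Fadd had 0.24 to 0.67 in the control rats and 0.50 to 1.09 in the STZ rats, a difference of 0.38 (standard error 0.12, limma adjusted p 0.704), with STZ 5 inside the control range.

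Immediate early genes, which respond quickly to activity and stress, had 15 of 20 higher (median 0.12, and 0.07 without Control 5 and STZ 4). They ran from Dusp1, a phosphatase of MAP kinases (-0.28), to Cebpd, a transcription factor of the acute phase (0.47, and 0.18 without those arrays). Cebpd spread from -0.07 to 1.47 in the control and from 0.70 to 2.10 in the STZ rats. Of 14 genes of the circadian clock and its outputs 9 were higher (median 0.04), from Per2 (-0.31) to Nr1d1 (0.35). Per2 turned on 1 array, since STZ 6 had 1.44 where the other STZ rats had 3.28 to 3.63, and its difference was 0.0242 without STZ 6. For Nr1d1 STZ 5 was low at 3.02 where the other STZ rats had 3.73 to 4.08, and its difference was 0.49 without STZ 5.

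Few abundant genes could be shown to be flat with 12 arrays. In the 232 genes of highest level (the top 10%, 4.08 to 6.99), the 95% interval of the difference had a median half-width of 0.288, so that few intervals could fit within 1.2-fold. It did so for 8 genes, and within 1.5-fold, a bound added after seeing the data, for 188. The count of 8 was 0 to 19 when 1 array was left out. It was 36 after quantile normalization and 0 in the model of the 4 groups. The 8 were Tpt1 (translationally controlled tumor protein), Dkk3 (a secreted protein of Müller glia), the ribosomal protein genes Rpl10 and Rplp0, Mif (macrophage migration inhibitory factor), Acsl3 (a ligase of long-chain fatty acids), Psmc1 (a proteasome ATPase) and Trnau1ap (a factor of selenoprotein synthesis). Tpt1 had 5.52 to 5.83 in the control rats and 5.44 to 5.81 in the STZ rats, and Dkk3 had 5.26 to 5.62 and 5.33 to 5.69. The ranges of the groups nearly coincided in both genes. Of all 2320 genes the interval lay within 1.2-fold for 76 and within 1.5-fold for 1818.

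The most abundant photoreceptor genes had wider intervals. Sag had 6.45 to 7.79 in the control rats and 6.48 to 7.26 in the STZ rats, with a difference of 0.15 and a 95% interval from -0.31 to 0.62. Prph2 differed by 0.19 (interval -0.14 to 0.53) and Pdc, phosducin, by 0.14 (-0.20 to 0.47). After quantile normalization all 3 turned just below 0 (-0.07, -0.05 and -0.03), so that no direction can be given for them. Rcvrn, the photoreceptor calcium sensor recoverin, differed by -0.03 (-0.29 to 0.24).

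Other high-level genes of the retina were similar. The glial filament gene Vim differed by 0.04 (interval -0.40 to 0.48), the synaptic vesicle gene Syp (synaptophysin) by 0.19 (-0.10 to 0.49, and 0.03 without Control 5 and STZ 4) and Sv2b by 0.04. The glycolytic genes Ldha (0.07, -0.17 to 0.31), Gapdh (0.20, -0.17 to 0.56) and Aldoc (0.05, -0.21 to 0.31) all had intervals that included 0. Vim, Sv2b, Ldha and Aldoc turned just below 0 after quantile normalization. In the 232 genes as a whole 156 were higher in the STZ rats with a median of 0.07, but 105 were higher with a median of -0.01 after quantile normalization. Small shared shifts of abundant genes therefore depended on the scaling of the arrays.

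**Figure D4:**
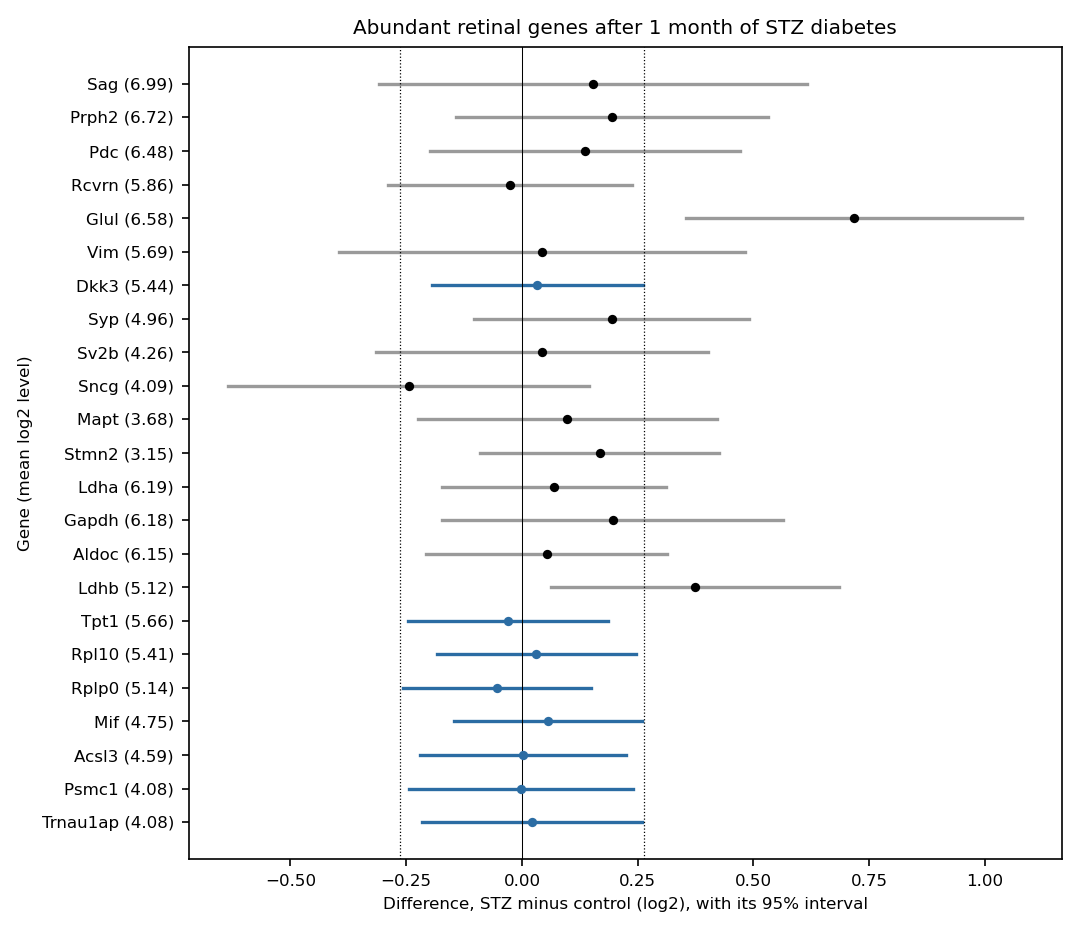
Points give the difference, STZ minus control (x axis, log2), and lines its 95% limma interval for abundant retinal genes, each with its mean log2 level; dotted lines mark 1.2-fold and blue marks the 8 genes of the top 10% whose interval lies within it. Glul and Ldhb have intervals above 0 and the other genes shown have intervals that include 0.

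The largest mean differences did not belong to the consistent genes. Of the 6 genes beyond 2-fold, Crybb1, Ttr, Fth1 and Ltbp1 were lower and Crygd and Sycp3 higher in the STZ rats, and in each the groups overlapped. On Control 4 alone Sycp3 was far below the other arrays, with the values given under other observations. Crybb1, a beta-crystallin, had 4.82 to 6.15 in the control rats, but STZ 4 had 1.89, STZ 2 lay just above the highest control rat and the other STZ rats had 4.23 to 4.81. Its difference was -1.05 (standard error 0.50, limma adjusted p 0.759), and -0.41 without Control 5 and STZ 4. Crygd, a gamma-crystallin, ran the other way with 5.89 on STZ 2 and 4.15 on STZ 5, and with -0.52 on STZ 4 (difference 1.201, standard error 0.84, limma adjusted p 0.825, and 2.02 without those arrays). Crystallins are the main proteins of the lens, and several are also made in the retina.

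The list of 8 crystallins and lens genes had 3 higher and a median of -0.20, which became 0.10 with 4 higher without those arrays. The same array was low in genes of other kinds. STZ 4 had -0.85 for Slc6a13 (other STZ rats 1.19 to 2.25), 1.49 for Anxa1 (3.64 to 4.45) and -0.58 for Serpinf1, which encodes pigment epithelium-derived factor (1.22 to 2.20). The lens markers summed to 46.8 on STZ 4 and to 182.7 or more on every other array. What set that array apart was not tested.

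**Figure D5:**
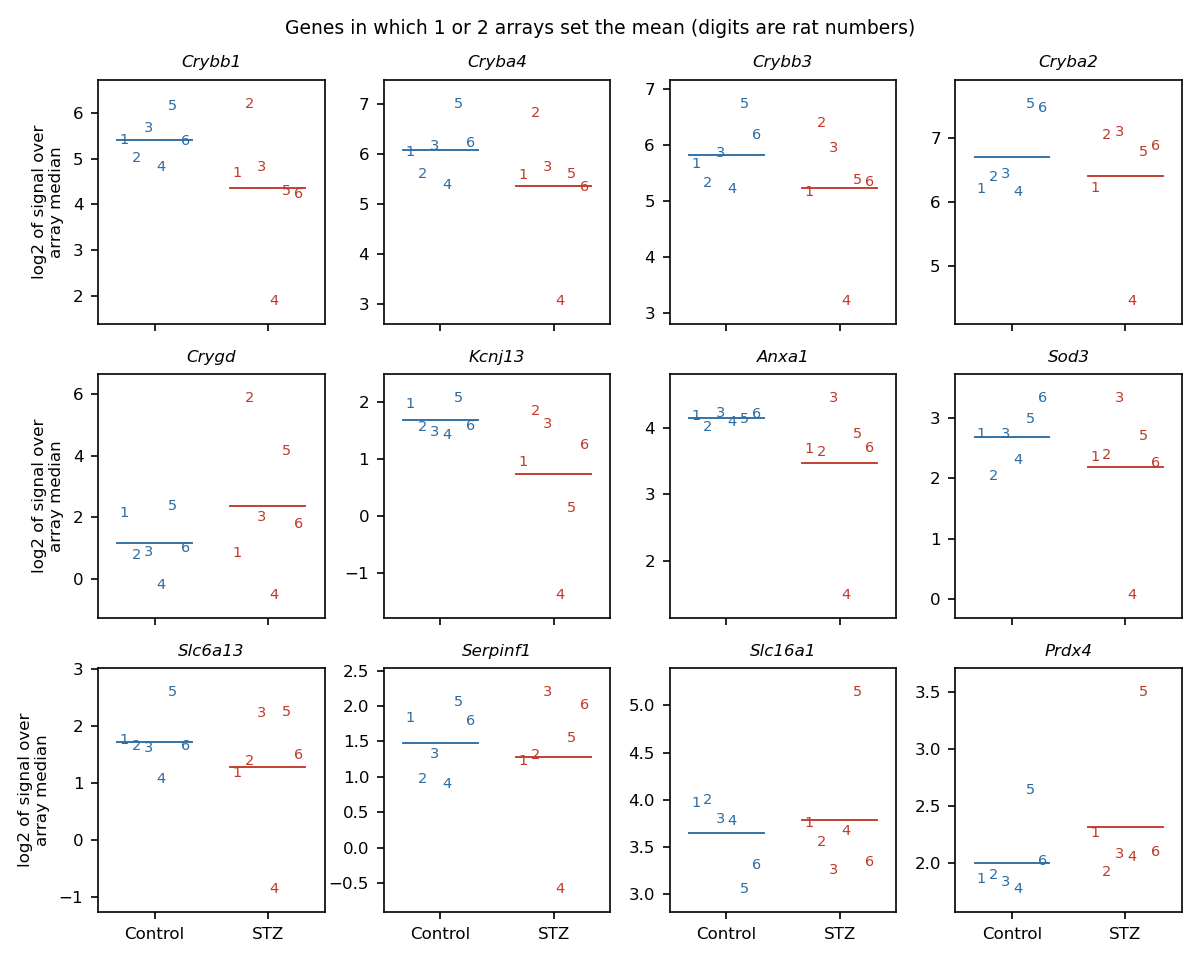
Each panel is a gene, with the level of each rat (y axis, log2 of signal over array median; scales differ between panels) for control rats in blue and STZ rats in red, digits giving the rat's number and lines the group means. STZ 4 lies lowest in the first 10 panels, STZ 2 and STZ 5 lie high for Crygd, and STZ 5 lies high for Slc16a1 and Prdx4.

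Ttr, transthyretin, a carrier of thyroid hormone and retinol made by pigment and ciliary epithelium, was spread over both groups (-0.60 to 2.97 in the control rats, -1.43 to 1.10 in the STZ rats, difference -1.13). Ltbp1, a binding protein of latent TGF-beta named here after its values were seen, was -0.13 to 0.70 and -2.17 to 0.15 (difference -1.05), with STZ 4 and STZ 6 the lowest, and a further probe gave 0.08.

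The study had taken a set of genes to PCR, chosen there from array data that include these samples and from earlier reports. Their counts are therefore no independent evidence of a direction. Of 25 with a probe 19 were among the 2320 genes, 10 of them higher in the STZ rats with a median of 0.02. Without Control 5 and STZ 4, 16 of 19 were higher with a median of 0.27. Nppa and Jak3 were higher and Kcne2 lower with an unadjusted p under 0.05. Several of the rest had no settled direction. Icam1, an adhesion molecule of endothelium, differed by -0.06 and by 0.25 with a further probe, and Slc16a1, a lactate transporter, by 0.13 and by -0.26 with a further probe, with STZ 5 far above the other STZ rats by the first. Vcam1 differed by -0.10 (0.03 without those arrays) and by -0.24 with a further probe. Timp1 differed by -0.06 (0.20 without those arrays) and Serpinf1 by -0.19 (0.30). Ccl2, a monocyte chemokine, differed by 0.11 (0.30 without those arrays). Slc6a11, the GABA transporter GAT-3, had 1.38 to 1.98 in the control rats and 0.93 to 3.20 in the STZ rats, with STZ 2 and STZ 5 the highest (difference 0.47, and 0.78 without those arrays).

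The 1 month differences of the 17 genes without overlap were set beside those at 3 months, which come from other rats and other controls. At 3 months 54.1% of all tested probes were called by limma and the median difference of all probes was 0.45, with a narrower spread of values within each array, so that a value near 0.45 is the middle of that comparison. Of the 9 genes higher at 1 month 7 were called higher at 3 months. The 54.1% counts both directions, and the share of all probes called higher is not given here. Whether 7 of 9, or the counts that follow, differ from such a share was not tested. Of the 8 genes lower at 1 month 4 were called higher at 3 months and 1 was called lower, which was Kcne2 with -0.81 (limma adjusted p 0.00133). The difference between the months was called for 4 of the 17, and for 15.5% of all probes. The 17 were chosen for their 1 month difference, which the difference between the months contains, so these shares cannot be compared. The 4 genes were Rhot2 (0.54 at 3 months), Lsr (0.62), Bzw1 (0.69) and Rab7a (0.66), all below 0 at 1 month. Gchfr differed by 0.75 and Glul by 0.35 at 3 months, and for neither was the difference between the months called.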

How the data were processed

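Total RNA of 24 rat retinas was hybridised to CodeLink rat whole genome arrays, of which the 12 arrays of 1 month were used, with the other 12 for the comparison between months. The authors deposited, for each of 33911 probes, the background-subtracted intensity of the spot and the same intensity normalized to the array median. Images were quantified with CodeLink Expression Analysis Software, and no genome build is given in the sources used here, so no coordinates are printed. The values of the series table were checked against each array's file, and 0 differed by more than 1e-06. On 1 of the 12 arrays 1 probe had no value.

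The deposited intensity of the 33849 rat probes was divided by its array median and put on the log2 scale, with a floor of 0.01 for scaled values. Percentile ranks within the array were computed as well. RefSeq accessions named 4675 of 5469 probes that carried one, giving 4013 genes. A gene is represented by its probe of highest level, and 225 of the 2320 genes had several probes above 0. Probes with a median scaled intensity above the 35th percentile (0.486) were tested, 22002 in all, by limma 3.58.1 in R 4.3.3 with Benjamini-Hochberg adjustment over all of them, called at an adjusted p under 0.05 and 1.2-fold. The difference between months was an interaction in 1 model of the 4 groups. Replicates were the samples that the labels separate, and the p-values measure the spread between these samples, some of which may share a rat in the control group. With 200 of the 22002 probes changed by 1 on the log2 scale in simulated data, limma called 86.5% of them with 7 false calls. The differences seen in the 2320 genes had a median size of 0.122, so the 86.5% does not give the power at such sizes.

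Named are genes whose groups do not overlap, the 5 smallest p-values in each direction, the highest and lowest difference of each list, some of its genes of highest level, the study's PCR genes, and flat abundant genes. A few genes that the rule selects are not reported here. Genes outside this rule (Rcvrn, the markers used to check the tissue, Cryba2, Cryba4, Crybb3, Fth1, Sycp3, Mx2 and Ltbp1) were named for their role or after their values were seen. The members, lists and rules were chosen with earlier results of these data known. Alternatives were other scalings, filters, floors and models, a replicate block, and leaving out arrays. Leaving out Control 5 and STZ 4 together and the 1.5-fold bound were added after seeing the data. The number of arrays and the signal over background limit the precision, with a median intensity of 124 to 359.6 before scaling.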

Additional observations from a re-analysis of the deposited data

Results flagged for a closer look

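Single arrays that lay far from the other 5 of their group were looked for in 114 named genes, or 228 groups of 6, by Dixon's criterion at 95%. There were 27 such values. Chance alone gives about 1 in 20 groups, or 11.4, in genes taken without regard to their values, but many of these genes were named for large differences, which single arrays can produce, so the 2 numbers cannot be compared. Of these 9 were on Control 5, 6 on STZ 4, 4 on STZ 5, 3 on STZ 6, 2 each on STZ 1 and STZ 2, and 1 on Control 6.

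Control 5 was low for Gchfr (-0.0411, other controls 0.31 to 0.50), Dld (-0.44, others 1.33 to 1.87) and Atp5pd (4.61, others 5.22 to 5.56). It was high for Osbpl1a (2.01, others 1.46 to 1.64), Kcne2 (2.74, others 1.91 to 2.17), Slc24a1 (3.79, others 3.16 to 3.38), Hspa2 (1.42, others 0.43 to 0.69), Prdx4 (2.64, others 1.78 to 2.02) and Kcnk3 (0.92, others 0.47 to 0.64). Control 6 was high for Aldoc (6.54, others 5.97 to 6.08).

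STZ 4 was low for Osbpl1a (-0.10, other STZ rats 1.06 to 1.42), Slc6a13 (-0.85, others 1.19 to 2.25), Sod3 (0.0647, others 2.26 to 3.34), Anxa1 (1.49, others 3.64 to 4.45) and Serpinf1 (-0.58, others 1.22 to 2.20), and high for Ednrb (1.10, others 0.88 to 0.93). STZ 5 was low for Rpsa (2.75, others 3.49 to 3.90) and Nr1d1 (3.02, others 3.73 to 4.08), and high for Prdx4 (3.50, others 1.92 to 2.27) and Slc16a1 (5.14, others 3.26 to 3.75). STZ 6 was low for Atp5mc2 (2.27, others 3.62 to 4.29), Per2 (1.44, others 3.28 to 3.63) and Psmc1 (3.73, others 4.05 to 4.23). STZ 2 was high for Herpud1 (4.05, others 2.77 to 2.99) and low for Cd53 (-2.19, others -0.17 to 0.40). STZ 1 was high for Ifi47 (1.45, others 0.66 to 0.80) and low for Sag (6.48, others 7.08 to 7.26).

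Between the months the STZ minus control difference changed for 18 of 80 genes named without regard to the study's PCR list. The test was the limma interaction at an adjusted p under 0.05 and 1.2-fold, which called 15.5% of all probes. Many of the 80 were named for their 1 month difference, which the interaction contains, so the 2 shares cannot be compared. All 18 were higher at 3 months relative to 1 month, and the median 3 month difference of all probes was itself 0.45. At 3 months the interquartile range within an array was 1.48 to 2.23 in control and 2.07 to 2.70 in STZ arrays (log2). Whether this unequal spread shaped the 18 differences was not tested. The 3 month minus 1 month difference was 0.97 for Rhot2, 0.91 for Lsr, 0.91 for Bzw1, 0.84 for Rab7a, 1.05 for Flot2, 1.18 for Golgb1 and 1.02 for Gnb3. It was 1.69 for Clu, 0.99 for Grm4, 0.76 for Hagh, 1.16 for Ptpn1, 1.07 for Lcn2, 2.56 for Lgals3 and 2.64 for Crybb1. It was 0.91 for Dynlt1, 0.85 for Ccn2, 1.91 for Cebpd and 1.32 for Anxa1. Of the 18 genes 4 were higher in the STZ rats at 1 month.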

How the results depend on the processing

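No gene of the 2320 was called under any of the alternatives at an adjusted p under 0.05. Among all probes 2 were called in the model of the 4 groups and 1 with array weights, 1295 passed at an unadjusted limma p under 0.05 and 1.2-fold, and 255 passed the methods' comparison at p under 0.01. Leaving out each array in turn gave 0 calls throughout. The count of genes without overlap (17) was 18 to 41 when 1 array was left out and 35 without Control 5 and STZ 4. It was 14 after quantile normalization and 14 by percentile rank. The count of flat abundant genes (8) was 0 in the model of the 4 groups, 36 after quantile normalization, 0 to 19 when 1 array was left out, 20 without Control 5 and STZ 4, and 188 at the 1.5-fold bound.

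The replicate numbers do not pair the rats, since the deviations of same-numbered arrays had correlations from -0.19 to 0.26. With the replicate number as a block 0 probes were called, and 1634 had an unadjusted p under 0.05 in place of 1450.

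Of 1765 alternative values for 80 named genes 1754 kept their direction. The model of the 4 groups, the replicate block and the variance trend do not change the estimate, so their values could only keep it. Without Control 5 and STZ 4, Slc6a13 became 0.16, Sncg 0.0151 and Dld -0.27. With array weights Uchl1 became -0.16, Dld -0.27 and Psmb4 -0.10. When 1 array was left out, Dld ranged from -0.25 to 0.25, Ctss from -0.0975 to 0.0526, Cd53 from -0.49 to 0.0267, Lgals3 from -0.17 to 0.68 and Per2 from -0.41 to 0.0242. For 34 further genes given as levels 19 of 752 values moved by more than the smaller SD of their groups. The causes were not tested.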

Other observations

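Several genes chosen after their values were seen had levels that no group shared. Mx2, an interferon-induced GTPase, had 6.86 on Control 2 and 0.09 to 0.97 on the other 11 arrays. Sycp3, a protein of the meiotic synaptonemal complex, had -4.55 on Control 4 and 2.77 to 3.49 elsewhere. Fth1, the ferritin heavy chain, had 0.62 to 0.82 on Control 2, STZ 1, STZ 3 and STZ 5 and 2.78 to 4.28 on the other 8 arrays, with no value between. Aldh3a1, the only marker of cornea and ciliary body measured here, had a scaled signal of 6.96 on STZ 5 and 0.818 to 1.58 on the other 11 arrays.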
